A study of Drosophila melanogaster with 24 samples.

Results

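Male Drosophila melanogaster that had gone through 3 sessions of courtship suppression training (3X trained, 6 flies) were compared with males that were handled on the same schedule without a female (3X mock, 6 flies). These 12 flies were chosen by their sample labels out of the 24 flies of the series, which also holds 6 males trained in 1 session (1X trained) and 6 males of its own mock group (1X mock). Each fly gave 1 library from the poly(A) RNA of its head, and all flies were virgin males that had been housed singly and were trained on day 5. A session lasted 2 h, sessions were 30 min apart, and heads were taken 1 h after the end of training. The labels give neither strain nor genotype, and no group carries a transgene or drug according to them. Of the 17559 genes in the deposited table, 10247 reached at least 1 RPKM (reads scaled by gene length and by library size) in at least 6 of the 12 flies and were compared. Differences are given as log2 differences, trained minus mock, on the log2(RPKM + 1) scale with their standard error (SE), and a gene was called at a Benjamini-Hochberg adjusted p below 0.05 in limma.

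In courtship suppression a male that is repeatedly rejected by a mated female courts less afterwards, and repeated spaced sessions leave a longer memory than a single session does. Memory that lasts for a day needs new transcription and translation in the fly. The head holds the brain and the compound eyes, and around the brain it also holds fat body, a tissue with roles in nutrient storage, amino acid metabolism and immune secretion, as well as muscle, cuticle-forming cells and blood cells. RNA of a whole head is therefore a mixture, in which fewer cells of a type and less RNA per cell cannot be told apart.

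The 12 libraries held 24683818 to 39464275 reads, as recovered from the RPKM values. Pairs of flies of the same group correlated with r of 0.988 to 0.992 in the 3X mock group and 0.982 to 0.990 in the 3X trained group. Markers of head tissues were present in every fly. The neuronal RNA-binding protein elav lay at 8.47 to 10 RPKM, the opsin ninaE at 12403 to 14688 RPKM, the glial factor repo at 11.9 to 16.5 RPKM and the fat body lipoprotein apolpp at 294.8 to 439.9 RPKM. The library of 3X mock replicate 6 stood apart. Its 25 testis markers summed to 176.1 RPKM, while those of the other 11 flies summed to between 26.8 and 34.5 RPKM, and its Mst87F, a sperm protein gene, was at 16.2 RPKM against at most 0.829 RPKM elsewhere. Of these markers only 3 passed the filter on low values. Counts of called genes are therefore also given without this fly. Midgut proteases summed to at most 2.09 RPKM and the 12 accessory gland markers to at most 13.1 RPKM in any fly.

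After 3 sessions the heads held more RNA of the methionine cycle enzymes Gnmt and Ahcy, of the transsulfuration enzyme Cth and of single exosome, endoplasmic reticulum, mitochondrial and antioxidant genes. Single genes of neuronal signalling and the ecdysone response gene Eip78C were lower. The changes were small and spread over many functions. The fit called 244 genes, 2.38% of those tested, of which 159 (1.55%) were higher and 85 (0.83%) were lower. The median difference was 0.29 among the higher genes and -0.23 among the lower genes, 213 of the 244 differed by less than 0.5, and 7 by at least 1. Without adjustment 2214 genes (21.6%) had a p below 0.05, 1313 higher (12.8%) and 901 lower (8.79%). The values of the 6 trained and the 6 mock flies did not overlap for 68 of the genes called higher and 46 of those called lower, where 1.56% of all tested genes were separated upwards and 0.937% downwards. The split of the calls depended on the scaling between libraries, with 148 higher (1.44%) and 120 lower (1.17%) under median-ratio scaling and 130 higher (1.27%) and 170 lower (1.66%) under quantile normalization. These scalings moved the median of all genes from 0.01 to between 0.00 and -0.01.

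The number of calls also rested on single flies. Without 3X mock replicate 6 there were 82 calls (0.8%), 51 higher (0.498%) and 31 lower (0.303%), and 80 of the 244 were among them. Leaving out each of the 12 flies in turn gave between 26 calls (without 3X trained replicate 3) and 622 calls (without 3X trained replicate 6). A set of 26 genes, 20 higher and 6 lower, was called in all 12 of these fits. The set counts both genes of overlapping pairs, whose reads on shared bases could not be separated. These pairs are CG15093 and asRNA:CR43964, SpdS and asRNA:CR45053, Lip2 and CG6415, and CG15717 and MFS10, all higher. The higher genes of the set include Gnmt of the methionine cycle, Cth of transsulfuration, the spermidine synthase SpdS, the exosome gene Rrp4, the extracellular superoxide dismutase Sod3, the neprilysin Nep7 and the cathepsin CtsL3. Its lower genes were the neprilysin Nepl12, the prolyl hydroxylase Hph, CG10650, CG6867, CG42554 and SmydA-2.

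Of the lists, the one with the most called genes was that of methionine cycle, transsulfuration and glutathione synthesis, the reactions that turn methionine into S-adenosylmethionine, homocysteine and then cysteine and glutathione. Of its 16 tested genes 5 rose and none fell, 12 were above 0, as were 53.1% of all genes tested, and the list's median difference was 0.38 against 0.01 over all genes. The 5 calls stood without 3X mock replicate 6, and 3 of them (Cth, Gnmt and SpdS) without 3X trained replicate 3. In the liver and in fat body, Gnmt uses S-adenosylmethionine to methylate glycine. It lies at chr3R:12674608-12676084 on the plus strand (dm6) and was at 154, 229.8 and 278 RPKM (lowest, median and highest) in the 3X mock flies and at 333, 569.7 and 855 RPKM in the 3X trained flies. Every trained fly lay above every mock fly, and the difference was 1.28 ± 0.24 (SE, adjusted p 0.0121 by limma). Ahcy, which splits the S-adenosylhomocysteine left by such methylations, lies at chrX:15450261-15453167 and went from 41.5, 58.4 and 70.4 RPKM to 72.5, 93.5 and 138 RPKM. The groups did not overlap there either, with a difference of 0.82 ± 0.17 (adjusted p 0.018 by limma). Cth, cystathionine gamma-lyase, makes cysteine in the last step of transsulfuration. Its mock flies had 26.7, 32.6 and 33.8 RPKM and its trained flies 40.7, 47.4 and 59.6 RPKM, a difference of 0.61 ± 0.10 (adjusted p 0.00905 by limma) without overlap. The lowest mock value was that of replicate 6.

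The other 2 called genes belong to the polyamine branch, which uses decarboxylated S-adenosylmethionine. SamDC, the decarboxylase, had 36.9, 44.6 and 51.4 RPKM in mock and 47.7, 57.9 and 72.4 RPKM in trained flies, with overlapping groups (0.42 ± 0.10, adjusted p 0.0268 by limma). SpdS, spermidine synthase, had 33.2, 36.6 and 38.6 RPKM in mock and 40.6, 46.6 and 60.7 RPKM in trained flies, without overlap (0.38 ± 0.07, adjusted p 0.0121 by limma). SpdS lies at chr3R:9631641-9633673, and the antisense transcript asRNA:CR45053 shares 1042 bases with it, so that in non-stranded libraries their reads cannot be told apart. The remaining steps were not called. Sam-S, which makes S-adenosylmethionine, was at 156, 173 and 191 RPKM in mock and at 201, 230.2 and 257 RPKM in trained flies, with no overlap but an adjusted p of 0.191 by limma in the 24-fly model and 0.0424 in a fit of the 12 flies alone. Cbs, the enzyme before Cth, differed by 0.40 ± 0.13 (adjusted p 0.0833 by limma). Of the glutamate-cysteine ligase that starts glutathione synthesis, the modifier subunit Gclm differed by 0.54 ± 0.26 and the catalytic subunit Gclc by -0.19 ± 0.06, neither of them called. Sam-S, Cbs, Gclm and Gclc were chosen for naming after their values were seen.

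**Figure D1:**
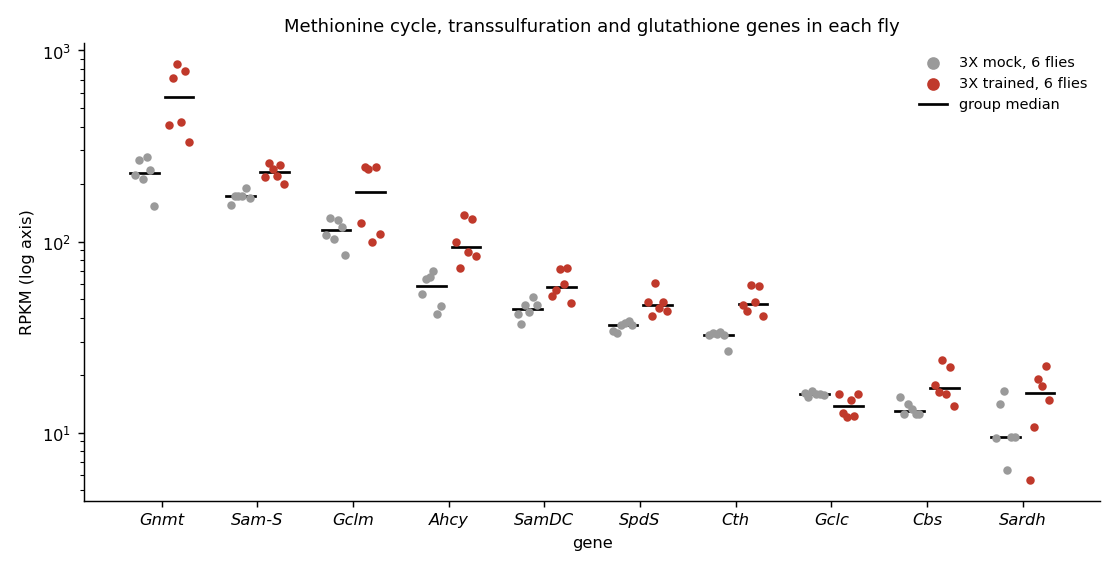
RPKM (log axis) of 10 genes of the methionine cycle, transsulfuration and glutathione synthesis in each of the 6 3X mock flies (grey) and 6 3X trained flies (red); black bars are group medians. The groups do not overlap for Gnmt, Sam-S, Ahcy, SpdS and Cth, and Gclc is the gene whose trained median is the lower one.

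Other enzymes of amino acid and sugar metabolism rose singly. CG15093, a predicted hydroxyisobutyrate dehydrogenase of valine breakdown, was at 103, 116 and 138 RPKM in mock and 141, 194 and 329.9 RPKM in trained flies without overlap (0.80 ± 0.15, adjusted p 0.0121 by limma). Its 1310 bases are shared with the antisense asRNA:CR43964, whose difference was also 0.80. CG6415, the aminomethyltransferase of glycine cleavage, and the lipase Lip2 both differed by 0.51, and since they share 1310 bases on opposite strands their reads could not be separated. The kynurenine pathway enzyme v (vermilion), which opens the tryptophan ring, went from 25.7, 35.9 and 39.7 RPKM to 39.4, 49.9 and 61.4 RPKM with a slight overlap (0.54 ± 0.13, adjusted p 0.0313 by limma). The sugar transporter sut1 rose from 5.77, 7.13 and 8.17 RPKM to 8.66, 12.1 and 18.4 RPKM without overlap (0.77 ± 0.16, adjusted p 0.018 by limma). The call of v was lost without 3X mock replicate 6, without 3X trained replicate 3 and with the length trend removed. That of sut1 was lost without 3X trained replicate 3. The lists of these functions had few calls. The list of amino acid, pyrimidine and kynurenine breakdown had 1 of 20 genes called and a median of -0.06, the list of glycolysis and citric acid cycle had 0 of 27 called and a median of -0.01 (2 higher and 1 lower at an unadjusted p below 0.05), and sugar digestion, storage and transport had 1 of 17 called and a median of -0.0017.

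**Figure D2:**
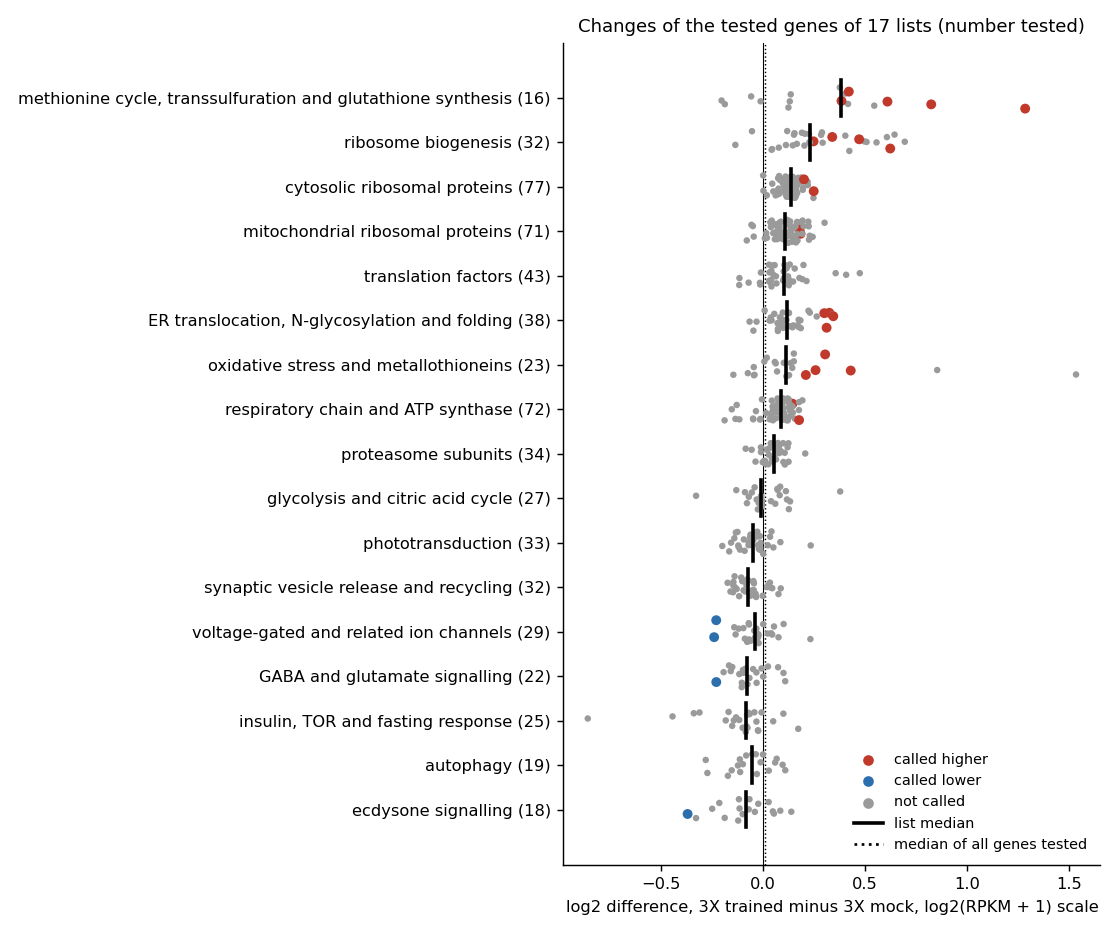
Log2 difference, 3X trained minus 3X mock, of every tested gene in 17 gene lists (number tested in parentheses); red and blue points were called higher and lower, grey points were not called, black bars are list medians and the dotted line is the median of all 10247 genes. List medians run from 0.38 for methionine cycle, transsulfuration and glutathione synthesis to -0.09 for ecdysone signalling.

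Genes of ribosome assembly lay mostly above 0, with few of them called. The list of ribosome biogenesis holds some genes of the exosome, which trims ribosomal and small nucleolar RNA. It also holds assembly factors and snoRNP proteins that guide rRNA modification. Of 32 tested genes 4 rose (Rrp4, Nmd3, Rrp40 and NHP2) and none fell, 20 were higher and none lower at an unadjusted p below 0.05, 30 were above 0, and the median was 0.23. Without 3X mock replicate 6 there were 2 calls, and without 3X trained replicate 3 there was 1. The exosome cap protein Rrp4 was at 8.85, 9.33 and 10.4 RPKM in mock and 11.4, 13.2 and 17.4 RPKM in trained flies without overlap (0.47 ± 0.09, adjusted p 0.0121 by limma). Rrp40, another cap protein, had 5.09, 5.39 and 5.58 RPKM in mock and 6.15, 6.6 and 9.66 RPKM in trained flies, also without overlap (0.34 ± 0.08, adjusted p 0.0268 by limma). The exosome ring proteins Rrp46 (0.47 ± 0.11) and Mtr3 (0.29 ± 0.07), which the list does not hold, were called as well. Both were chosen after their values were seen. The other ring and cap proteins Rrp42, Rrp45, Ski6 and Csl4 differed by 0.21, 0.22, 0.23 and 0.19 and were not called. The catalytic subunits Dis3 (0.17 ± 0.07) and Rrp6 (-0.05 ± 0.06) were not called either. Of the box H/ACA snoRNP proteins, which direct pseudouridylation, NHP2 went from 12.3, 12.9 and 17.1 RPKM to 15.8, 20.8 and 33.4 RPKM with overlap (0.62 ± 0.17). Gar1 (0.61 ± 0.17, adjusted p 0.0515 by limma) and Nop60B (0.64 ± 0.22, adjusted p 0.0982) stood just outside the threshold or further out.

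The level of ribosome assembly genes was uneven between trained flies. The list's level in a fly, the median over its genes of the log2 value minus the mock mean, was -0.05 to 0.06 in mock flies, 0.39 to 0.47 in 3X trained replicates 2, 3 and 5, and -0.04 to 0.08 in replicates 1, 4 and 6. Trained replicates 1 and 6 lay within the mock range. The methionine cycle list separated the groups in full, with -0.08 to 0.05 in mock flies and 0.11 to 0.59 in trained flies, replicates 3 and 5 being highest. Since the lists were chosen with earlier results of these data known, a separation of their levels gives no support apart from the calls.

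**Figure D3:**
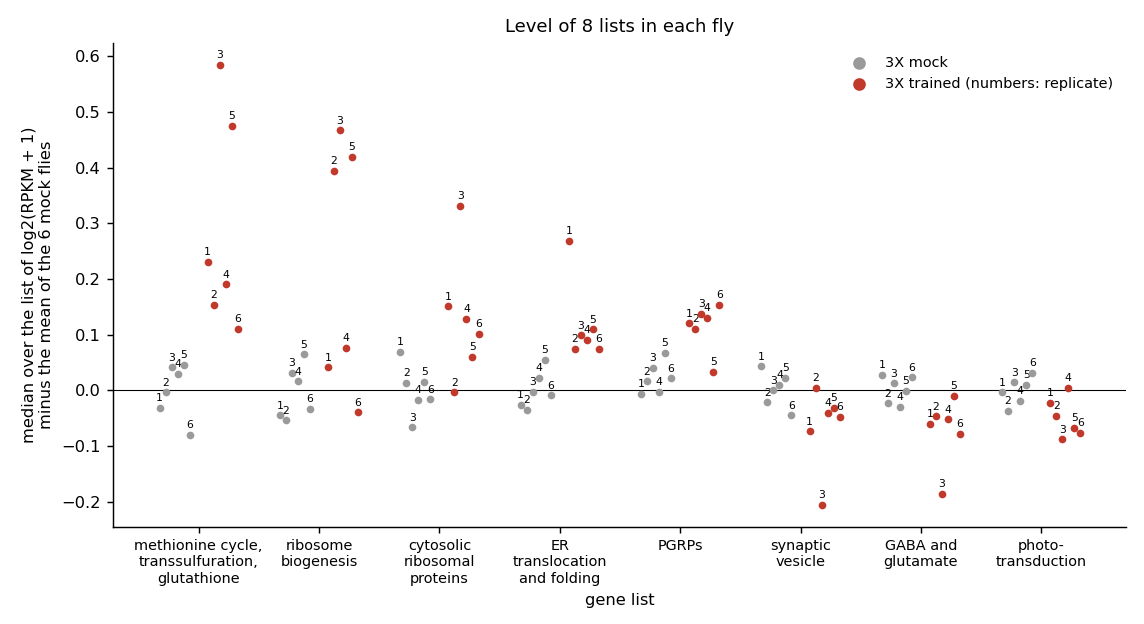
Level of 8 gene lists in each fly, as the median over the list's genes of log2(RPKM + 1) minus the mean of the 6 3X mock flies; grey points are 3X mock flies, red points 3X trained flies, and the numbers are replicates. Trained replicate 3 is highest for the methionine cycle, ribosome biogenesis and cytosolic ribosomal protein lists and lowest for the synaptic vesicle, GABA and glutamate and phototransduction lists.

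The ribosome itself and its partners differed by smaller amounts, in the same direction for nearly all genes. Of 77 cytosolic ribosomal protein genes 76 were above 0 and 45 were higher at an unadjusted p below 0.05, with none lower, but only RpL11 (0.25 ± 0.05) and RpS3 (0.20 ± 0.05) were called, and the median was 0.14. RpL11 was at 109.8, 119 and 125 RPKM in mock and 132, 137 and 162 RPKM in trained flies without overlap. Of 71 mitochondrial ribosomal protein genes 67 were above 0, 21 were higher and none lower at an unadjusted p below 0.05, and mRpL35 and mRpL30 were called, both at 0.18. Translation factors had no called gene among 43, with 18 higher and 1 lower at an unadjusted p below 0.05 and a median of 0.10, the largest differences being those of eIF6 (0.47 ± 0.13, adjusted p 0.0503 by limma), eEF1delta (0.41) and eIF2beta (0.36). Aminoacyl-tRNA synthetases had no called gene among 17, with 16 above 0 and a median of 0.10. Without 3X mock replicate 6 the call of RpL11 stood, while those of RpS3, mRpL35 and mRpL30 were lost. Without 3X trained replicate 3 none of the 4 ribosomal protein calls stood.

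These genes are short, and gene length moved with the comparison. The median exonic length was 916 bases for cytosolic and 783 bases for mitochondrial ribosomal protein genes against 1975.5 bases over all genes tested. With each fly's length trend removed, an alternative chosen after seeing the data, the medians were 0.07 for the cytosolic list, 0.05 for the mitochondrial list and 0.06 for translation factors, and no gene of the 3 lists was called. The ribosome biogenesis list, with a median length of 1854 bases, kept a median of 0.21 and 2 calls, and the methionine cycle list, with 2105.5 bases, kept 0.35 and 4 calls. The part of gene length in these results was not tested.

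Genes of protein entry into the endoplasmic reticulum (ER) were called in the same direction. Of 38 tested genes for ER translocation, N-glycosylation and folding 4 rose and none fell, 35 were above 0, 15 were higher and none lower at an unadjusted p below 0.05, and the median was 0.12. TRAM, a membrane protein beside the translocon, had 12, 12.4 and 13.3 RPKM in mock and 14.4, 15.7 and 17.5 RPKM in trained flies without overlap (0.31 ± 0.06, adjusted p 0.018 by limma). The translocon subunit Sec61beta differed by 0.32 ± 0.08, Tapdelta of the translocon-associated complex by 0.30 ± 0.08 and the p24 cargo receptor loj by 0.34 ± 0.09. CG32276, a small ER protein of the RAMP4 family that fell outside the list, was at 188, 197 and 234 RPKM in mock and 217, 289.8 and 356 RPKM in trained flies, with 3X mock replicate 5 as the only mock fly inside the trained range (0.51 ± 0.09, adjusted p 0.00905 by limma). All 6 trained flies lay above all 6 mock flies in the list's level, at 0.07 to 0.27 against -0.03 to 0.06. This list too was chosen with earlier results of these data known. Of the 4 calls 1 stood without 3X mock replicate 6, none without 3X trained replicate 3 and 1 with the length trend removed. The vesicle coats COPI and COPII (0 of 19 called, 5 higher and 1 lower at an unadjusted p below 0.05, median 0.04) and the unfolded protein response list (0 of 11 called, 1 higher and 3 lower, median -0.02) had no called gene.

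Among mitochondrial genes, 28 of 72 for the respiratory chain and ATP synthase were higher and none lower at an unadjusted p below 0.05. The calls were ND-B14.7 of complex I, at 157, 167 and 170.0 RPKM in mock and 173, 187 and 204 RPKM in trained flies without overlap (0.18 ± 0.04), and ATPsyndelta (0.14 ± 0.04). The list's median was 0.09, and 0.02 with the length trend removed. After 1 session it was -0.05, with 15 of the 72 genes above 0. Of 15 import genes Roe1, a nucleotide exchange factor of the matrix chaperone, rose by 0.28 ± 0.06 and the outer membrane pore Tom40 by 0.17 ± 0.04. Without 3X trained replicate 3 neither the respiratory chain list nor the import list had a call.

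Antioxidant genes rose in part. Of 23 tested genes for oxidative stress and metallothioneins 4 rose and none fell, 18 were above 0, and the median was 0.11. Sod3, the extracellular superoxide dismutase, was at 96.4, 107 and 124 RPKM in mock and 132, 143 and 169.6 RPKM in trained flies without overlap (0.43 ± 0.08, adjusted p 0.0121 by limma). The glutathione peroxidase homologue Gtpx went from 94.5, 103 and 110.4 RPKM to 114, 125 and 132 RPKM, again without overlap (0.26 ± 0.06, adjusted p 0.0268 by limma), and Trx2, a thioredoxin, and Prx3, the mitochondrial peroxiredoxin, differed by 0.30 ± 0.07 and 0.21 ± 0.04. The metallothioneins MtnD (1.53 ± 0.49) and MtnE (0.85 ± 0.33) had the largest differences of the list with no call, at adjusted p of 0.0803 and 0.142 by limma. Without 3X mock replicate 6 there were 3 calls, and Sod3 was the call that stood without 3X trained replicate 3. Of 31 glutathione S-transferases GstE7 (0.61 ± 0.15) and GstE8 (0.47 ± 0.11) rose with separated groups and none fell. The list's median was 0.05 and changed sign to -0.01 with the length trend removed. Neither call stood without 3X mock replicate 6 or without 3X trained replicate 3. Cytochromes P450 had 0 of 72 genes called (5 higher and 6 lower at an unadjusted p below 0.05) and a median of -0.05.

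Immune genes differed mostly through single members. AttB, an attacin that acts on Gram-negative bacteria, was at 0.991, 1.4 and 2.09 RPKM in mock and 2.74, 4.03 and 30.6 RPKM in trained flies, the values of 3X trained replicates 1 and 2 being 17.6 and 30.6 RPKM and those of the other 4 at most 4.29 RPKM. The groups did not overlap (1.69 ± 0.42, adjusted p 0.0384 by limma), and the gene was called in 3 of the 12 fits that left out a fly. It was not called without 3X mock replicate 6 (adjusted p 0.0697). No other antimicrobial peptide gene of the 4 tested beside it was called. Mtk, a peptide against fungi and Gram-positive bacteria, was at 0.423, 0.9 and 1.33 RPKM in mock and 1.35, 5.55 and 15.6 RPKM in trained flies (1.77 ± 0.70, adjusted p 0.142 by limma), AttC and DptB differed by 1.15 ± 0.54 and 1.18 ± 0.64, and Def by 0.32 ± 0.79. Of 13 matched peptide genes 5 passed the filter on low values, all of them above 0 and 3 of them higher at an unadjusted p below 0.05, with a median of 1.18. DptB and Mtk, at 0.316 to 1.71 and 0.423 to 1.33 RPKM in mock, reached 1 RPKM in more trained than mock flies. For them the filter itself favoured a positive difference, so the list's counts and median give no separate support.

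Receptors and adaptors of the Imd pathway, which senses bacterial peptidoglycan, were called in 2 cases. PGRP-LB, which cleaves peptidoglycan and dampens the pathway, was at 4.58, 6.26 and 6.6 RPKM in mock and 6.57, 8.29 and 10.7 RPKM in trained flies, with a slight overlap (0.46 ± 0.10, adjusted p 0.0186 by limma). Its gene shares 7704 bases with CG17230 on the other strand. The adaptor imd itself went from 30.5, 34.3 and 37.4 RPKM to 36.2, 40.8 and 44.3 RPKM with overlap (0.25 ± 0.06, adjusted p 0.0282 by limma). Its call was lost without 3X mock replicate 6 (adjusted p 0.0616 by limma) and with the length trend removed (0.104), while that of PGRP-LB stood in both. Neither call stood without 3X trained replicate 3. Of 19 Imd pathway genes imd was the only call. In that list 14 were above 0, 3 were higher and none lower at an unadjusted p below 0.05, and the median was 0.07. Of 10 recognition proteins 9 were above 0 and 4 were higher at an unadjusted p below 0.05, with a median of 0.14. Toll pathway genes had 0 of 21 called (1 higher and 2 lower at an unadjusted p below 0.05) and a median of -0.03. Bomanins and other Toll effectors had 0 of 16 called, 2 higher and 5 lower at an unadjusted p below 0.05, 3 above 0 and a median of -0.11. For instance BomS6 was at 959, 1189 and 1337 RPKM in mock and 632, 828 and 996 RPKM in trained flies (-0.55 ± 0.17, adjusted p 0.0662 by limma).

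On the lower side, neuronal genes were called singly and their lists leaned below 0. Of 29 voltage-gated and related channels KCNQ, a slow potassium channel, and unc80, a part of the NALCN sodium leak channel complex, fell and none rose. KCNQ had 63, 64.4 and 67.2 RPKM in mock and 47.4, 54.9 and 61.7 RPKM in trained flies without overlap (-0.24 ± 0.05, adjusted p 0.0268 by limma), and it shares 3016 bases of the same strand with mlt, which differed by -0.28. The nicotinic receptor subunit nAChRbeta2 went from 14.2, 15.4 and 16.7 RPKM to 9.27, 13.2 and 14 RPKM without overlap (-0.30 ± 0.08, adjusted p 0.0459 by limma). The acetylcholine list had this 1 call among 15 genes, 1 higher and 2 lower at an unadjusted p below 0.05 and a median of -0.02, which changed sign to 0.02 with the length trend removed, when the call was lost. The kainate-type glutamate receptor clumsy differed by -0.23 ± 0.06 and the ionotropic receptor Ir62a by -0.34 ± 0.07, both called. Nrx-IV, a septate junction protein of glia and epithelia, was at 18.9, 19.1 and 20 RPKM in mock and 15.5, 16.8 and 18.1 RPKM in trained flies without overlap (-0.20 ± 0.04, adjusted p 0.018 by limma). Of the neuronal and channel genes given here KCNQ, Ir62a and Nrx-IV were called without 3X mock replicate 6 and none without 3X trained replicate 3. With the length trend removed the calls of KCNQ, unc80, clumsy and Nrx-IV (adjusted p 0.0512 by limma) were lost as well.

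Synaptic vesicle genes had no call among 32. At an unadjusted p below 0.05 there were 9 lower and none higher, 7 of 32 lay above 0, and the median was -0.07. For instance shi, the dynamin of endocytosis, was at 94.5, 101 and 105 RPKM in mock and 77.9, 90.8 and 93.8 RPKM in trained flies (-0.16 ± 0.05) without overlap and without a call, and brp of the active zone differed by -0.10 ± 0.04. GABA and glutamate genes had 6 lower and none higher of 22 (median -0.08), and genes of dopamine, octopamine and serotonin 3 lower and 1 higher of 25 with no call (median -0.05), led by Tbh, which makes octopamine (-0.26 ± 0.07, adjusted p 0.0527 by limma). Phototransduction genes had 0 of 33 called, 6 lower and none higher, 7 above 0 and a median of -0.05. The neuronal lists hold long genes, with median exonic lengths of 5160 bases for synaptic vesicle genes and 6288 bases for channels. With the length trend removed their medians were -0.03 and 0.01, so that the direction of the channel list changed. The median of the GABA and glutamate list was then -0.04, that of the dopamine, octopamine and serotonin list changed sign to 0.0035, and none of their genes was called. The phototransduction list, with a median length of 2331 bases, then had -0.06.

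Known memory genes had a single call. Of 35 tested genes orb2, a CPEB protein that regulates translation at the synapse and is needed for long-term courtship memory, was the only call, at 12.7, 14.4 and 15.1 RPKM in mock and 10.4, 12.3 and 13 RPKM in trained flies with overlap (-0.22 ± 0.05, adjusted p 0.0268 by limma). Its gene shares 17173 bases of the same strand with CG43783, which differed by -0.22 as well. The list had 3 higher and 4 lower genes at an unadjusted p below 0.05 and a median of -0.01, which changed sign to 0.0044 with the length trend removed. The orb2 call stood without 3X mock replicate 6 and was lost without 3X trained replicate 3 and with the length trend removed. Among 11 neuronal activity-induced genes none was called (2 higher and 2 lower at an unadjusted p below 0.05), and the median was 0.02, or -0.02 under quantile normalization. CrebA differed by 0.24 ± 0.07 (adjusted p 0.0557 by limma) and Hr38 by -0.25 ± 0.10 (adjusted p 0.137). Neuropeptides had 0 of 35 called (2 higher and 1 lower) and a median of -0.04, clock genes 0 of 10 (none higher and 1 lower) and -0.04, and odorant-binding proteins 0 of 26 (1 higher and none lower) and -0.0048.

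Among hormone lists, that of ecdysone lay mostly below 0. In it Eip78C, a nuclear receptor induced by the steroid, fell from 7.02, 7.4 and 8.64 RPKM to 4.95, 5.63 and 6.38 RPKM without overlap (-0.37 ± 0.08, adjusted p 0.018 by limma). It lies at chr3L:21226609-21266503, with 4 other annotated genes inside or across it. Of the 18 genes 7 were lower and none higher at an unadjusted p below 0.05, and the median was -0.09. The list holds long genes, with a median exonic length of 6211 bases, and its median was -0.05 with the length trend removed. After 1 session its median was -0.10, with 4 genes called lower and 2 above 0. The Eip78C call stood without 3X mock replicate 6 and with the length trend removed, and was lost without 3X trained replicate 3. The juvenile hormone list had no call among 12, with 2 higher and 1 lower at an unadjusted p below 0.05, 7 above 0 and a median of 0.02, which fell below 0 under quantile normalization and with the length trend removed. The insulin, TOR and fasting list had no call among 25 (1 higher and 5 lower at an unadjusted p below 0.05), with 3 genes above 0 and a median of -0.08. Thor, the 4E-BP translation repressor that foxo activates, was at 226, 280.0 and 344 RPKM in mock and 71.7, 155 and 317 RPKM in trained flies (-0.86 ± 0.30, adjusted p 0.0998 by limma), and foxo differed by -0.31 ± 0.09. Autophagy had no call among 19 either, with 5 lower and none higher at an unadjusted p below 0.05 and a median of -0.05. The transcription factor gene dsx, whose male and female isoforms set sexual identity in courtship neurons, went from 4.44, 4.79 and 5.3 RPKM to 2.9, 3.31 and 5.19 RPKM with overlap (-0.36 ± 0.10, adjusted p 0.0465 by limma) and was called in 2 of the 12 fits that left out a fly.

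Neprilysins, membrane peptidases that break down neuropeptides, changed in both directions. Of 23 tested genes Nep7 rose and Nepl12 fell, and the median was -0.06. Nep7, at chr3R:27954917-27957326, was at 3.09, 4.24 and 5.33 RPKM in mock and 5.97, 14.1 and 23.9 RPKM in trained flies (1.46 ± 0.24, adjusted p 0.00905 by limma). Nepl12, at chr3R:9675523-9677778, was at 5.58, 5.99 and 6.43 RPKM in mock and 2.16, 2.74 and 4.03 RPKM in trained flies (-0.82 ± 0.12, adjusted p 0.00745 by limma), the smallest adjusted p of the comparison. Neither gene's groups overlapped, and neither gene shares bases with an annotated neighbour. Both were called in all 12 fits that left out a fly.

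The remaining genes with the smallest p or the largest difference, and the remaining calls of the lists, have mixed or unknown functions. The glycosyltransferase gene beta4GalNAcTA rose from a mock median of 16.5 RPKM to a trained median of 21.3 RPKM (0.37 ± 0.06) and CG3760 from 26 to 33.2 RPKM (0.35 ± 0.06), both without overlap. CG15717 and MFS10, which share 5548 bases of the same strand, both differed by 0.29 ± 0.05 without overlap. CG5958 was at 74.5, 82.8 and 103 RPKM in mock and 73.4, 221 and 307 RPKM in trained flies with overlap (1.15 ± 0.26, adjusted p 0.0268 by limma). The exon junction protein gene mago differed by 0.30 ± 0.08, as the only call among 28 splicing genes (8 higher and 1 lower at an unadjusted p below 0.05, median 0.08). The gene et, an inhibitor of JAK-STAT signalling, differed by 0.29 ± 0.08, as the only call among 13 genes of its list (2 higher and 5 lower, median -0.03, or 0.02 with the length trend removed). The mitochondrial carrier gene CG1628, named after its values were seen, rose from a median of 100.9 to 141 RPKM without overlap (0.65 ± 0.16). It shares 1024 bases with CG2124 on the other strand, which was called at 0.59 (adjusted p 0.0393 by limma). Reads of the shared bases could not be separated. Lower were CG42526 (-0.44 ± 0.09) and CG13796 (-0.64 ± 0.16) without overlap, and lncRNA:CR42862 (-0.28 ± 0.06), CG31211 (-0.26 ± 0.05) and prd1 (-0.24 ± 0.05) with overlap. CG45075 (-0.68 ± 0.18), also with overlap, shares 5087 bases of the same strand with Kr-h1, which was not called at -0.64.

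Further called genes lay outside the lists, as did 199 of the 244. The uncharacterized CG10650 fell from 5.4, 6.87 and 10.3 RPKM to 1.75, 1.91 and 4.7 RPKM without overlap (-1.23 ± 0.23, adjusted p 0.0121 by limma). The alpha-galactosidase gene CG7997, named after its values were seen, fell from 193, 221 and 249 RPKM to 112, 151 and 191 RPKM, also without overlap (-0.53 ± 0.12, adjusted p 0.0312 by limma). The gene rha had the largest called fall, from 4.12, 6.46 and 14.6 RPKM to 0.544, 1.21 and 3.85 RPKM (-1.71 ± 0.43, adjusted p 0.0393 by limma). It shares 78 bases with tobi, an alpha-glucosidase gene on the other strand, which was not called at -2.31 ± 0.71 (adjusted p 0.073). The water and glycerol channel genes Eglp2 and Eglp4, which share 7119 bases, both differed by 0.48. Hph, the HIF prolyl hydroxylase that acts as an oxygen sensor, fell from 12.9, 13.7 and 14.4 RPKM to 10.1, 11.5 and 12.6 RPKM without overlap (-0.25 ± 0.05, adjusted p 0.0121 by limma). CG43630 (1.24 ± 0.25) overlaps Gnmt by 75 bases on the other strand, and their reads could not be separated there.

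The summed markers of each of the 9 tissue lists overlapped between the 3X mock and 3X trained flies. The 19 fat body markers summed to 5005, 7206 and 10052 RPKM in mock and 3789, 5139 and 7363 RPKM in trained flies, which overlapped. Of 14 tested fat body genes Gnmt was the only call, and the median was -0.17. The storage protein Lsp2 was at 2507, 4402 and 6642 RPKM in mock and 1004, 1712 and 4352 RPKM in trained flies (-1.16 ± 0.76, adjusted p 0.392 by limma). The part of fat body marker levels in the results for metabolic and immune genes was not tested. Of 12 glial genes Mdr65, an ABC transporter of the blood-brain barrier, fell from 15.6, 16.5 and 18.2 RPKM to 8.58, 11.5 and 15.5 RPKM without overlap (-0.48 ± 0.11, adjusted p 0.0268 by limma), while 6 of the 12 were above 0. Its call was lost without 3X trained replicate 3. Markers of neurons (0 of 11 called, none higher and 2 lower at an unadjusted p below 0.05, median -0.03, or 0.02 with the length trend removed), photoreceptors (0 of 11, none higher and 3 lower, -0.06), muscle (0 of 19, 1 higher and 1 lower, -0.04) and blood cells (0 of 10, none in either direction, 0.14) held no called gene.

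Across all genes the difference depended on length. The median exonic length was 1314.5 bases for the genes called higher and 4168 bases for those called lower. Among the genes in the lowest 25% of length, up to 1165 bases, the median difference was 0.07 with 55 higher and 3 lower calls, and in the highest 25%, from 3384 bases, it was -0.05 with 6 higher and 51 lower calls. The long genes minus the short genes, taken in each fly as medians relative to the mock mean, lay between -0.06 and 0.03 in mock and between -0.24 and -0.05 in trained flies, and 3X trained replicate 3 was the lowest. After 1 session the same medians were 0.03 and -0.01. With each fly's length trend removed 83 genes were called (0.81%), 46 higher (0.449%) and 37 lower (0.361%), and 73 of the 244 were among them. Whether RNA quality or library preparation differed between the groups is not given in the sources used here, and the part of length in the calls was not tested.

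**Figure D4:**
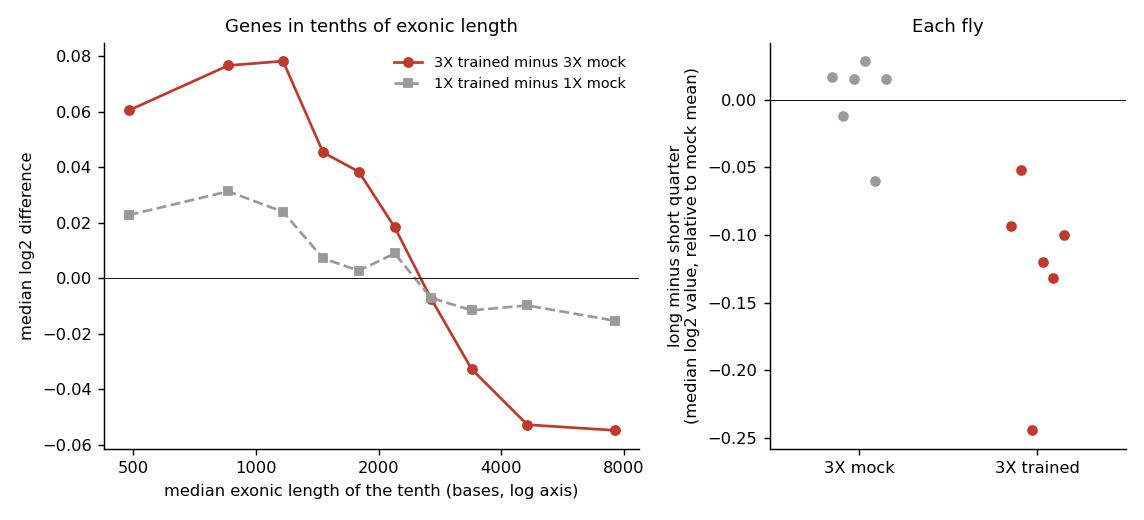
Left, median log2 difference, trained minus mock, in 10 equal bins of the tested genes by exonic length (log axis, bases), for 3X (red) and 1X (grey). Right, the longest 25% of genes minus the shortest 25% in each 3X fly, as medians of the log2 values relative to the mock mean; the 6 trained flies sit between -0.24 and -0.05 and the 6 mock flies between -0.06 and 0.03.

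The 3X differences were set beside those of the 1X flies, which have their own mock group, to ask which of them differed between the schedules. Of the 244 genes 184 had the same sign in the 1X comparison. There 117 of the 159 higher genes were above 0 and 67 of the 85 lower genes below 0, while 5203 of all 10247 tested genes were above 0. Of the 244 genes 28 were also called in the 1X comparison, where 5.13% of all tested genes were called, and 27 of these had the same direction. Gnmt (1.05), Nep7 (1.56) and Sod3 (0.58) were among them. The ribosome biogenesis list had a 1X median of 0.29, the methionine cycle list -0.0049, the ER list -0.01 and the cytosolic ribosomal protein list 0.01. The respiratory chain and ATP synthase list had -0.05, with 20 of 72 genes lower and 1 higher at an unadjusted p below 0.05. The glycolysis and citric acid cycle list had -0.15, with 18 of 27 lower, 6 of them called, and none higher. A difference between the schedules, tested as 3X effect minus 1X effect, was called for 18 genes (0.176% of those tested), 10 higher (0.0976%) and 8 lower (0.0781%), while 1210 (11.8%) had an unadjusted p below 0.05. Of the genes called after 3 sessions 8 were among the 18. In this contrast 36 of 72 respiratory chain genes were higher and 1 lower at an unadjusted p below 0.05, with no call. For glycolysis and citric acid cycle 11 of 27 were higher and none lower, also with no call. Over all 10247 tested genes 681 were higher and 529 lower. SpdS differed by 0.57 ± 0.10 between the schedules (adjusted p 0.0214 by limma), with 0.38 after 3X and -0.18 after 1X. Its mean level was 36 RPKM for 3X mock and 43.5 RPKM for 1X mock flies, against 47.7 RPKM after 3X and 38.3 RPKM after 1X training. Prx3 (0.32 ± 0.06) and sll (0.47 ± 0.08), a transporter that carries the sulfate donor PAPS into the Golgi, were higher after 3X relative to 1X. Targ1 and Targ2, overlapping genes of 1 locus named after their values were seen, showed the opposite. Targ1 was at 73.6, 97.4 and 113 RPKM in 3X mock and 64.7, 67.3 and 73 RPKM in 3X trained flies without overlap (-0.44 ± 0.11), against 0.29 after 1X. Its mean level was 93.8 RPKM for 3X mock and 67 RPKM for 1X mock flies, against 68.2 RPKM after 3X and 82.9 RPKM after 1X training. For both genes the mock groups also lay apart in their means, and the part of that in the difference was not tested. The smallest p-values belonged to slow (-0.59 ± 0.08) and su(r) (-1.16 ± 0.16), a dihydropyrimidine dehydrogenase of uracil breakdown, which rose after 1X by 0.44 and 1.21 and were not called after 3X. Without 3X mock replicate 6 there were 5 calls, and between 5 and 107 when each 3X fly was left out in turn, the most without 3X trained replicate 2.

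**Figure D5:**
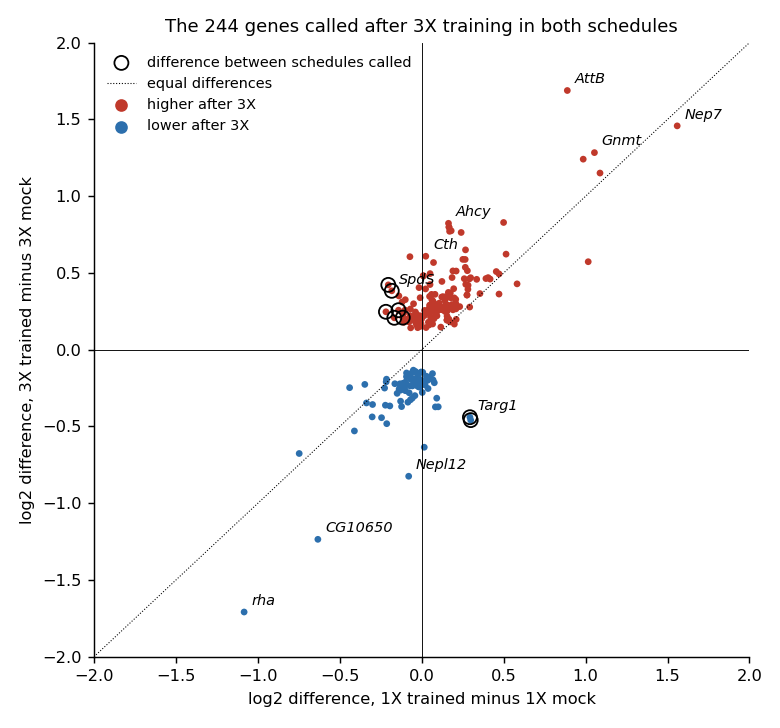
Log2 difference after 3X (vertical axis) against that after 1X (horizontal axis) for the 244 genes called after 3X; red genes were higher and blue genes lower after 3X, the dotted line marks equal differences and circles mark the 8 genes whose difference between the schedules was called. Nep7 and Gnmt lie near the dotted line, while SpdS and Targ1 have opposite signs on the axes.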

How the data were processed

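Poly(A) RNA of single heads was made into non-stranded SMART-Seq v4 libraries by the authors, who deposited a table of RPKM values for 17559 genes with 1 column per fly. The submitters' processing notes name dm6, bcl2fastq 2.18, TopHat2 2.0.13 and edgeR 3.18.1, and the study's methods also name, in another section, an older TopHat with dm3. RPKM divides reads by gene length and by library size. The size used for the deposited values was not the total of recovered reads. Among the 3X flies its ratio to that total ran from 0.95 (3X trained replicate 1) to 1.035 (3X trained replicate 4). In 1X trained replicate 1 the ratio was 1.116. The values thus already carry a scaling between libraries beyond read totals, and its source was not tested. Composition differences that this scaling leaves can still shift RPKM. All 16992 genes above 0 gave whole reads within 0.02 of a whole number (100% of genes), 16284 with the exonic length of Ensembl 115 and 708 with a fitted length. The reads served for depth and for a voom fit, which called 114 genes. Read numbers cover counting error only, since there were no molecular identifiers.

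Genes under 1 RPKM in more than 6 of the 12 3X flies were left out, and log2(RPKM + 1) was used. This scale understates the change of genes with low RPKM. limma 3.58.1 (eBayes with trend, R 4.3.3) estimated 4 group means from the 24 flies, two-sided, with Benjamini-Hochberg adjustment over 10247 genes. Flies were separate animals. The fit was tested on simulated data. Coordinates are dm6.

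The 62 gene lists and the members were chosen with earlier results of these data known. A list is described by counts and its median, with no test of its own, and 39 listed names that were not matched were not analysed here. Genes were named by rule: the 12 higher and 12 lower calls with the smallest p, the 5 of each with the largest difference, up to 6 calls in each list, the antimicrobial peptides that passed the filter and the 3 genes with the smallest p for the difference between schedules. Sardh is only plotted, and FBgn0025687, which has no symbol, is given with the schedule differences. Besides those marked in the text, CtsL3, sll, tobi, CG6415 and the genes given without a call as examples of a list were named after their values were seen.

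Alternatives changed the pseudocount, the filter, the scaling, the flies and weights in the fit, the replicate block, the threshold, each fly left out in turn, and, chosen after seeing the data, each fly's gene length trend.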

Additional observations from a re-analysis of the deposited data

Results flagged for a closer look

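In 224 groups of 6 flies (95 named genes, 9 tissue lists and the 8 lists whose level in each fly was plotted, each in 2 groups), 9 held a fly far from the others, where chance gives about 1 in 20 groups (11.2). The gap to the nearest fly was 0.809 of the group's range for Cth in 3X mock replicate 6, which was low at 26.7 RPKM, and 0.981 for the testis marker score of the same fly, which was high. It was 0.662 for CG32276 and 0.828 for Sec61beta, both high in 3X mock replicate 5, as was su(r) at 0.639. PGRP-LB was low in 3X mock replicate 4 (0.643), and RpL11 was high in 3X trained replicate 3 (0.641). The level of the ER list was high in 3X trained replicate 1 (0.818), and that of the peptidoglycan recognition proteins was low in 3X trained replicate 5 (0.645).

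The effect of training differed between the schedules for the 8 genes called after 3X that are among the 18 and for the 3 with the smallest p, by the limma contrast of 3X effect minus 1X effect. It was higher after 3X by 0.63 for asRNA:CR45053, 0.57 for SpdS, 0.47 for sll, 0.40 for Adk2, 0.38 for Naxd and 0.32 for Prx3 on the log2 scale. It was lower for slow (-0.59), su(r) (-1.16), the gene with the identifier FBgn0025687 (-1.58), Targ1 (-0.73) and Targ2 (-0.76).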

How the results depend on the processing

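The 244 calls became 118 with no filter on low values, 54 in a fit of the 12 3X flies alone, 401 with sample weights, 114 with voom on recovered reads, 83 with the length trend removed, 5 at an adjusted p below 0.01 and 837 below 0.1. Leaving out each fly in turn gave 26 to 622 calls, and for the difference between schedules (18 calls) 5 to 107. That difference had 125 calls with sample weights. The pseudocount, the filter at 5 RPKM and both scalings kept the 244 within 1.5 times. Same-numbered mock and trained flies did not deviate together (correlations of -0.22 to 0.00, and no fly correlated best with its own number). The main fit treated the flies as unpaired. The labels do not say what the replicate numbers stand for, and shared handling of same-numbered flies was not tested. With a replicate block 28 genes were called (25 higher and 3 lower), and 6 for the difference between schedules.

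Of 2078 fitted values of 95 named genes under alternatives 1556 kept their direction and their side of the threshold, 513 no longer passed it, 6 newly passed and 3 changed sign: Def without 3X mock replicate 3 (-0.20) and without 3X trained replicate 5 (-0.094), and su(r) without 3X trained replicate 3 (-0.039). Leaving out single flies gave -0.20 to 0.74 for Def and -0.039 to 0.13 for su(r). The difference of group medians, which has no test, had the sign of the fitted difference for 94 of the 95 genes, the exception being Def (-0.21). Of 944 list medians 5 moved by more than the spread between flies: glutathione S-transferases (-0.0062) and odorant-binding proteins (-0.074) with the length trend removed, vacuolar ATPase (-0.032) and phototransduction (-0.085) under quantile normalization, and cuticle proteins without 3X mock replicate 6 (0.080, with -0.078 to 0.080 over the flies left out). The cause of these changes was not tested.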
